A study of Mus musculus with 2 samples.

Results

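Among H2AZ peaks at the ends of a single gene in neural progenitor cells of the mouse embryonic brain, a small group had scores under 8. These low-scoring peaks are described here, with the genes that carry them. They were chosen by the score that the authors' peak caller gave each peak and by position: a score under 8, and overlap with the 1 kb on either side of the ends of exactly 1 protein-coding gene. Of 21546 peaks used, 9282 lay at the ends of 1 gene, and 686 of these (7.39%, 95% exact binomial interval 6.87 to 7.94%) had a score under 8. They belonged to 677 genes. The score decided membership, so the scores of the members are a description, and no test was made on them.

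The study used chromatin immunoprecipitation with sequencing (ChIP-seq), in which DNA bound to a protein is recovered with an antibody and sequenced. Its groups were 1 H2AZ ChIP library and 1 input library, both made from neural progenitors that came from brains of C57BL/6 mice at embryonic day 13, with no treatment or altered gene named in the labels. The sources used here state neither pooling nor the sex of the embryos. The deposited values are 1 list of peaks, there are no replicates, and read depth is unknown. All values are therefore comparisons of peaks or genes within this list, and every interval given is a 95% exact binomial interval that covers counting error only.

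H2AZ is a variant of the core histone H2A that remodelling complexes place in nucleosomes, above all in those next to transcription start sites. It is found at active promoters and, in stem and progenitor cells, also at promoters of developmental genes that are held ready by Polycomb complexes. CpG-rich promoters, known as CpG islands, serve most broadly expressed genes and many developmental regulators, whereas genes used in 1 tissue often start from CpG-poor promoters.

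Sequences upstream of some starts show the range of promoters that carried low-scoring peaks. Each is the 250 bases before a RefSeq start (GRCm38.p6), read 5′ to 3′ on the strand of the gene, with every CpG in capitals. The first set holds the 5 developmental regulators with the lowest scores among peaks that touched the start but not the other end of the gene and overlapped a promoter in the table: the LIM homeobox gene Lmx1b (score 4.21), the ventral homeobox gene Vax1 (5.30), the cardiac T-box gene Tbx20 (5.58), the bHLH gene Hand2 (5.67) and the motor neuron homeobox gene Mnx1 (5.67). They held 19, 11, 22, 15 and 21 CpGs.

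Lmx1b, chr2:33641099-33641348, minus strand: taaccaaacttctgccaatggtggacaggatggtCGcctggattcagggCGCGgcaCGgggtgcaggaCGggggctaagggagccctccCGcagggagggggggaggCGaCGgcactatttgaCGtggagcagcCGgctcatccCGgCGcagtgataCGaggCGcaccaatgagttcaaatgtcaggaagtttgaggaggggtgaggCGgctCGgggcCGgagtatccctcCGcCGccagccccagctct

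Vax1, chr19:59170398-59170647, minus strand: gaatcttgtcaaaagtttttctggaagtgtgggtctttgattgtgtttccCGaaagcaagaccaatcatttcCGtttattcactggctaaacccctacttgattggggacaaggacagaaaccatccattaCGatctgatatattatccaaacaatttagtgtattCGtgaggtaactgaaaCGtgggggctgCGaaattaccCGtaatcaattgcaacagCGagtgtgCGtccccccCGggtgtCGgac

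Tbx20, chr9:24774304-24774553, minus strand: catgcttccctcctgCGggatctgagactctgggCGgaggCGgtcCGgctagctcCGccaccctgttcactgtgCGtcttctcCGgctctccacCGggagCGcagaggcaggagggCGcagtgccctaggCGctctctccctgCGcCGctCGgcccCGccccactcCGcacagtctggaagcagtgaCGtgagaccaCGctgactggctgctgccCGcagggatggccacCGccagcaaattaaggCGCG

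Hand2, chr8:57320733-57320982, plus strand: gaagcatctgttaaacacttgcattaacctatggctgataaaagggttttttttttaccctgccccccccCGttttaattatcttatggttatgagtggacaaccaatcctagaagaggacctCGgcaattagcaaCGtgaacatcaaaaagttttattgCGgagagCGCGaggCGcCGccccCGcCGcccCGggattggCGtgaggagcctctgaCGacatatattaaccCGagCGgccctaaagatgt

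Mnx1, chr5:29478471-29478720, minus strand: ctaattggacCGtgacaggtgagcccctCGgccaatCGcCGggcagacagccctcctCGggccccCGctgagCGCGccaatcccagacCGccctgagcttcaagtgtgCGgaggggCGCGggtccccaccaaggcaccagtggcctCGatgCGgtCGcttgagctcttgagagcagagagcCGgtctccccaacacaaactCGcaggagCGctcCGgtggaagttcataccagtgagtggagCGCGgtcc

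The second set, chosen after the values were seen, shows the 2 radial glia marker genes with low-scoring start peaks and the fewest CpGs. Slc1a3 encodes a glial glutamate transporter (score 7.42) and Fabp7 a brain fatty acid binding protein (6.56), and their sequences held 2 and 4 CpGs.

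Slc1a3, chr15:8710808-8711057, minus strand: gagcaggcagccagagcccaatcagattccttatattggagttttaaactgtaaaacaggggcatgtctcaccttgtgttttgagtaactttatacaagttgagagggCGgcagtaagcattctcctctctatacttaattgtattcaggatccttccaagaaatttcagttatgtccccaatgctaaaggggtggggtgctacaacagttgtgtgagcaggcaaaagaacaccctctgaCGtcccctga

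Fabp7, chr10:57784673-57784922, plus strand: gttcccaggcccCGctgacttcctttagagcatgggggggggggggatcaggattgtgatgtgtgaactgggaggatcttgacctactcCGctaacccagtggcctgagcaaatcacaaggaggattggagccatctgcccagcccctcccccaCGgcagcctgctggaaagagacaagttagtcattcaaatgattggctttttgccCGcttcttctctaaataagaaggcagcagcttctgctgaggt

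The third set gives the same stretch for the 3 highest-scoring single-gene start peaks, those of the kinase gene Uhmk1 (38.8), the syntaxin gene Stx17 (37.6) and the deubiquitinase gene Usp25 (37.3). They held 5, 11 and 47 CpGs, so a high score went with few CpGs at Uhmk1 and many at Usp25.

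Uhmk1, chr1:170215408-170215657, minus strand: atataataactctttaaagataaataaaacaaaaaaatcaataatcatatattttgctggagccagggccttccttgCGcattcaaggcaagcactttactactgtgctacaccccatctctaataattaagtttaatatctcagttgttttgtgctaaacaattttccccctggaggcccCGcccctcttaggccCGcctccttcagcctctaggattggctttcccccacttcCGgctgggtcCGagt

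Stx17, chr4:48124669-48124918, plus strand: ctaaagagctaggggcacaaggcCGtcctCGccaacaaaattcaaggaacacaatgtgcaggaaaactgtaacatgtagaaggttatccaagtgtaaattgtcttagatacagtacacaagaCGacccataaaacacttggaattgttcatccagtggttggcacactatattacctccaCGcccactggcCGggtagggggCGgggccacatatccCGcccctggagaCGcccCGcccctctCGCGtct

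Usp25, chr16:77013819-77014068, plus strand: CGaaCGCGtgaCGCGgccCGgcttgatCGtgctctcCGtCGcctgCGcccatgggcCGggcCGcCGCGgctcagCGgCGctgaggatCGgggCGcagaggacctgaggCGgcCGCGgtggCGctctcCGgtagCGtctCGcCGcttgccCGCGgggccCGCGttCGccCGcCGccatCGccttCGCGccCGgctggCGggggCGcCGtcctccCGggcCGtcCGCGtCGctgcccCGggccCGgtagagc

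The low-scoring peaks formed the lower flank of a continuous distribution. Their scores ran from 4.17 to 7.99 with a median of 6.86 (quartiles 6.26 and 7.46), and the other 8596 single-gene peaks ran from 8.00 to 38.8 with a median of 17.3. The lowest were at Thbs4, a thrombospondin gene (4.17), Col6a1, a collagen VI chain gene (4.18), Lmx1b (4.21), the chaperone gene Dnajb11 (4.42) and Nbdy (4.47). Just inside the limit lay, among others, Cxcl10, Eif3g, Eppin and Hpse2 at 7.95 each. Just outside it, at 8.00 each, lay Grhl3, Oacyl, Skida1, Tlcd2 and Tnpo2. Scores came in steps, with 107 distinct values among the 686 peaks and 71 peaks at 7.16 alone. The deposited list held 21592 peaks with numbers up to 32646, and peaks outside it, which may include further low-scoring ones, were not analysed here.

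**Figure D1:**
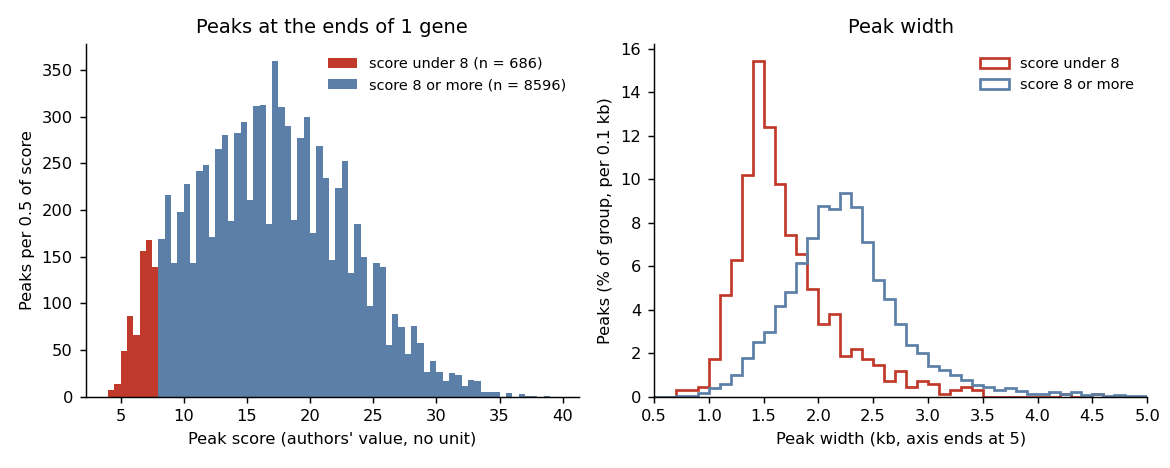
Left, number of peaks at the ends of 1 gene per 0.5 of score, with the 686 peaks under 8 in red and the other 8596 in blue. Right, peak width in kb as a percent of each group per 0.1 kb, with the axis ending at 5 kb. The limit of 8 cuts the rising side of a single hump, and the low-scoring group is narrower, with a median width of 1585 against 2205 bp.

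Low-scoring peaks were also narrow. The middle of their widths was 1585 bp, with quartiles at 1409 and 1889 bp and extremes of 755 and 4583 bp, against 2205 bp (1904 and 2503 bp) for the others. Width and score both come from the peak caller. Within the members, Spearman's rho between width and score was 0.0066 across 686 peaks, and among the others it was 0.25. Some low-scoring peaks were wide: 14 of 686 (2.04%) exceeded 3 kb, against 669 of 8596 (7.78%) of the others. The widest lay at Zmiz1, a transcriptional coregulator gene (4583 bp, score 7.46; chromosome 14, 25456748 to 25461330). It was followed by Ccn6 (4293 bp, 6.85), the elastase gene Cela1 (3499 bp, 7.65), the lactate transporter gene Slc16a3 (3464 bp, 7.18) and the histone demethylase gene Phf8 (3356 bp, 6.77). All 5 lay at a gene start. Zmiz1 and Ccn6 also had a higher peak in the gene or its flanks, of 13.4 and 13.7.

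Most low-scoring peaks marked the start of the gene, but more of them lay at its end than among higher-scoring peaks. The strand was known for 521 of the 686 peaks. Of these, 401 (77.0%, interval 73.1 to 80.5%) were at the start, 96 (18.4%, 15.2 to 22.0%) at the 3′ end and 24 (4.61%) touched both ends of a short gene. Among 6764 other peaks with known strand the shares were 94.4% at the start, 3.33% (2.91 to 3.78%) at the 3′ end and 2.25% at both. Read the other way, 29.9% (24.9 to 35.2%) of the 321 peaks at 3′ ends scored under 8, against 5.91% (5.36 to 6.49%) of the 6788 peaks at starts.

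**Figure D2:**
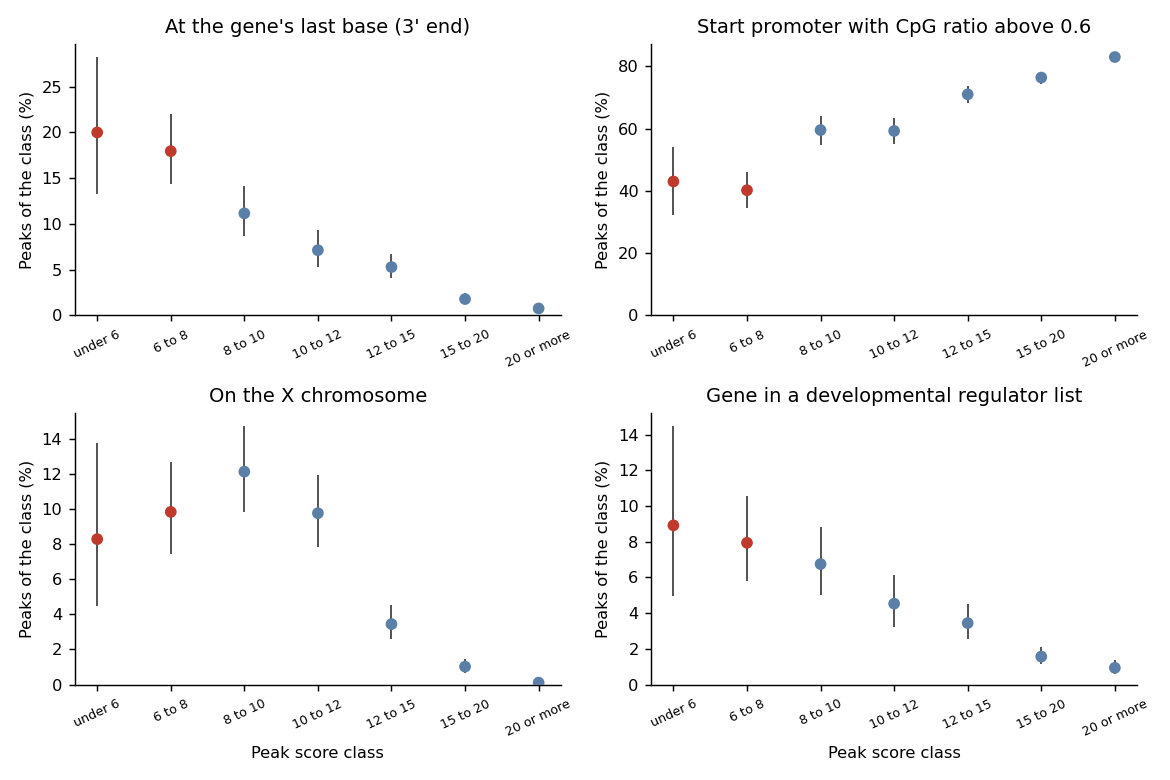
Shares of single-gene peaks in 7 classes of score (x axis), with 95% exact binomial intervals, for classes under 8 in red and 8 or more in blue: peaks at the 3′ end among those with known strand, start peaks whose promoter has a CpG ratio above 0.6, peaks on the X chromosome, and peaks of genes in a developmental regulator list. From the lowest to the highest class the 3′ share falls from 20 to 0.754% and the CpG-rich share rises from 43.0 to 83.0%.

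The share at the 3′ end fell with the score. It was 20% (13.3 to 28.3%) for scores under 6, 18% (14.3 to 22.1%) from 6 to 8, 11.2% (8.64 to 14.1%) from 8 to 10 and 0.754% (0.44 to 1.20%) at 20 or more. The limit of 8 thus lies on a gradient. Of the 96 low-scoring 3′ peaks, 48 (50.0%) belonged to a gene that also had a boundary peak of 8 or more, and 58 (60.4%) to a gene with such a peak in the gene or its flanks of 1 kb. Among the 225 other 3′ peaks the shares were close, at 112 (49.8%) and 129 (57.3%), so such company was not particular to low-scoring 3′ peaks. Thbs4 had a score of 4.17 at its 3′ end and 11.3 as its highest other peak. Dnajb11 had 4.42 and 22.1. Among genes chosen after their values were seen, the 3′ peak of the sodium-calcium exchanger gene Slc8a3 scored 6.47 against 20.2, and that of the semaphorin gene Sema6c 7.65 against 16.4. At these genes the low-scoring peak accompanied a higher one. Others had a low-scoring 3′ peak and no other boundary peak, such as (also chosen after their values were seen) the dendritic cell receptor gene Clec9a (5.37), the pluripotency homeobox gene Nanog (6.86) and the limb T-box gene Tbx4 (7.16).

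At gene starts, low-scoring peaks lay a little less tightly on the first base. The median midpoint was 186 bp into the gene (quartiles 50 bp before and 505 bp into it), against 146 bp (25 bp before and 381 bp into it) for the others. A midpoint within 500 bp of the first base was found for 276 of 401 low-scoring start peaks (68.8%, interval 64.0 to 73.3%) and for 78.8% (77.8 to 79.8%) of 6387 others. The midpoint was upstream in 30.4 and 28.3%, with overlapping intervals.

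**Figure D3:**
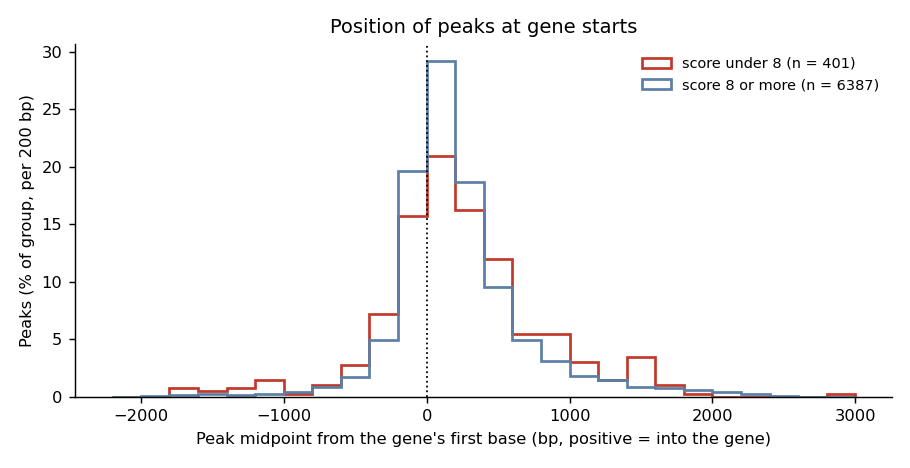
Distance of the peak midpoint from the first base of the gene, in bp and positive into the gene, as a percent of each group per 200 bp, for the 401 start peaks under 8 (red) and 6387 start peaks of 8 or more (blue). Both groups peak within 200 bp inside the gene, with medians of 186 and 146 bp, and the red line is lower at the centre.

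Most of these genes had no peak of 8 or more at their ends, but low-scoring peaks lacked such company less often than other peaks. Of the 677 genes, 554 (81.8%, interval 78.7 to 84.7%) had no boundary peak of 8 or more. Counted by peak, 561 of 686 (81.8%, 78.7 to 84.6%) had no other boundary peak of 8 or more, against 7864 of 8596 (91.5%, 90.9 to 92.1%) of the others. Of the 686 peaks, 419 (61.1%) had no other listed peak in the gene or its flanks, against 6627 of 8596 (77.1%) of the others. A peak of 8 or more elsewhere in the gene or its flanks was found for 216 (31.5%, 28.0 to 35.1%) low-scoring peaks and 17.4% (16.6 to 18.2%) of the others. These pooled values mix starts with 3′ ends, where such company was more frequent in both groups. At starts alone the shares were 28.7% (24.3 to 33.4%) and 16.3% (15.4 to 17.3%). For another boundary peak of 8 or more they were 12.7% (9.62 to 16.4%) and 7.33% (6.70 to 7.99%) at starts. Another peak lay within 5 kb of 26.1% (22.8 to 29.6%) of low-scoring and 14.9% (14.1 to 15.6%) of other peaks. The genes were shorter, with a median length of 17753 against 27627 bp.

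Some genes with a low-scoring peak at the outermost start had a higher peak at another start. Of the 401 start peaks, 84 (20.9%) belonged to a gene with another RefSeq start out of reach of the peak, and at 34 of these (40.5%) such a start had a peak of 8 or more. The corresponding values for the other start peaks were 725 of 6387 (11.4%) and 243 (33.5%). Chosen after the values were seen, the NMDA receptor subunit gene Grin2d had 7.16 at its outermost start and 29.8 at another. The kinase gene Csk had 5.67 and 23.3, the Wnt feedback gene Axin2 6.48 and 17.3, and the sodium channel gene Scn2a 6.86 and 15.5. For these genes the low score describes the outermost start and not the gene.

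There were 9 genes with a pair of low-scoring peaks of their own. Tlx3, a homeobox gene of spinal sensory neurons, had 6.56 at its 3′ end and 6.86 at its start, and Lin28a, an RNA-binding regulator of developmental timing, 6.18 and 6.86. Gdpd2 had 6.86 at each end and the amino acid transporter gene Slc38a3 7.16 and 7.67. Both peaks of Trim8 were narrow (755 and 1138 bp; 6.86 and 6.56). The cytokine gene Lif (5.97 and 7.95), the chromatin gene Phf12 (6.90 and 7.76) and the zinc finger gene Zfp423 (7.36 and 6.26) each also had a higher peak, of 21.2, 14.1 and 19.99.

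The genes with low-scoring peaks were next grouped by 18 gene family lists. Lists and their roles were set by gene symbol and not by measured expression, so a list can hold genes that differ from its name. Over all single-gene peaks 7.39% scored under 8. In 6 lists the interval of this share lay above that value: homeobox factors, the list of Sox, forkhead, T-box, Gata, Zic and Gli factors, developmental bHLH factors, muscle contractile genes, immune genes and replication-dependent histone genes. In 3 lists it lay below: Zfp zinc finger genes, ubiquitin and membrane traffic genes, and genes of DNA replication, transcription and RNA processing. These are counts within 1 peak list, without a set test.

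**Figure D4:**
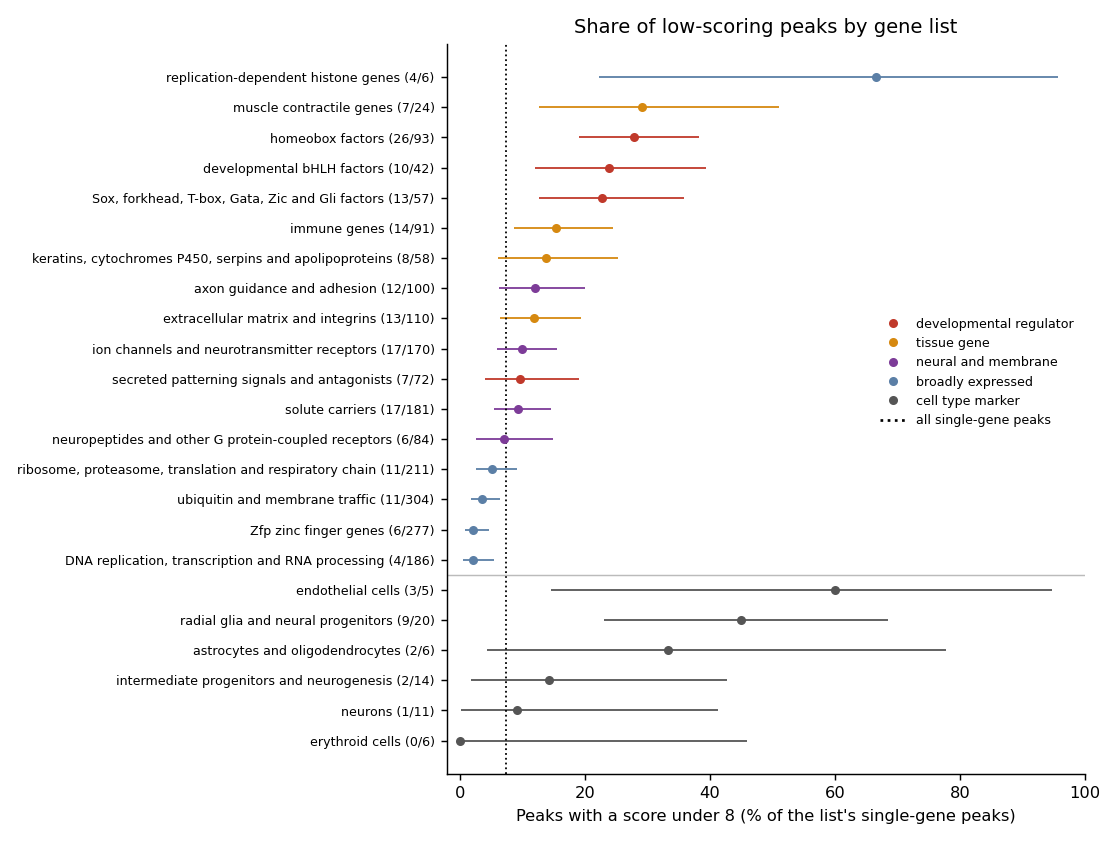
Percent of single-gene peaks with a score under 8 for each gene list with at least 5 such peaks, with 95% exact binomial intervals, colours for the role of the list and the number of low-scoring peaks over all single-gene peaks in brackets. The dotted line is the 7.39% of all single-gene peaks. Cell type markers stand below the grey line, and lists of DNA-binding developmental regulators lie to the right of the dotted line.

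Developmental regulators had the highest share of the 4 roles. The 4 developmental lists together had 264 single-gene peaks, of which 56 (21.2%, interval 16.4 to 26.6%), at 54 genes, scored under 8, with a median score of 11.3 over all 264 against 16.7 over all single-gene peaks. Homeobox factors had 26 of 93 (28%, 19.1 to 38.2%). Their lowest scores were at Lmx1b (4.21), Vax1 (5.30), the eye field gene Rax (5.40) and Mnx1 (5.67). Lmx1b and Vax1 also had a peak of 11.6 and 13.1 elsewhere in the gene or its flanks. Other homeobox members, named after their values were seen, were Lhx9 (5.89), Nkx2-2 (6.62), Lhx6, Otx1 and Meis2 (6.86 each), Emx1, Pax6, Nkx6-2 and Pou4f2 (7.16 each) and the ventral forebrain gene Gsx2 (7.50). Of these, Lhx9, Lhx6 and Pax6 had a peak of 10.8, 8.05 and 8.95 elsewhere in the gene or its flanks. The list also held high peaks, with Pbx3 at 31.1 and En2 at 25.6.

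The other DNA-binding families gave similar shares. In the list of Sox, forkhead, T-box, Gata, Zic and Gli factors 13 of 57 peaks (22.8%, 12.7 to 35.8%) scored under 8. The lowest were at Foxo6 (5.52), which had another boundary peak of 18.8, Tbx20 (5.58), the cardiac and gut gene Gata5 (5.96) and the endothelial gene Sox18 (6.38). Foxk1 (26.6) and Foxn2 (25.4) were the highest of the list. Developmental bHLH factors and their Id antagonists had 10 of 42 (23.8%, 12.1 to 39.5%), with Id3 (5.07), the Notch effector Hes1 (5.24), Hand2 (5.67) and Id4 (6.13) lowest. Hes1 and Id4 each had a further boundary peak, of 21.8 and 11.0, and the highest scores were at Msc (25.7) and Hes7 (25.3). The low-scoring peaks of Hes1 and Id4 thus stood beside a higher one. Secreted patterning signals and their antagonists stood at 7 of 72 (9.72%, 4.00 to 19.0%), an interval that includes the share of all single-gene peaks. Sfrp5, a Wnt antagonist gene, had 5.91, Fgf7 and the Nodal antagonist gene Lefty2 5.97 each, and Fgf8, a midline and isthmus signal, 6.74 beside another boundary peak of 9.84. Wnt9a (24.8) and Inhbb (21.8) were the highest.

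Genes of differentiated tissues had low-scoring peaks next most often. The tissue lists together had 42 of 285 (14.7%, interval 10.8 to 19.4%). The list of muscle contractile genes had 7 of 24 (29.2%, 12.6 to 51.1%). It was set by symbol pattern and also takes in the non-muscle myosin genes Myh14 and Myh9. Lowest were the smooth muscle myosin gene Myh11 (4.97), the calsequestrin gene Casq1 (5.59), the atrial myosin light chain gene Myl7 (6.26) and Myh14 (6.51). Myh14 also had a peak of 10.4 in the gene or its flanks. The highest of the list were Ryr2 (22.1) and Myh9 (20.8). Immune genes had 14 of 91 (15.4%, 8.67 to 24.5%), with Cd63 (5.07) and then Cd27, Clec9a and Il16 (5.37 each), below Ifngr2 (29.5) and Il17rd (29.1). Cd63 had a peak of 22.4 at another start and Cd27 another boundary peak of 17.4. Keratins, cytochromes P450, serpins and apolipoproteins had 8 of 58 (13.8%), including the retinoic acid hydroxylase gene Cyp26a1 (5.97), Sult5a1 (5.97), Cyp4f16 (6.56, beside a boundary peak of 13.4) and the hair keratin gene Krt81 (6.56), below Cyp2r1 (30.1) and Cyp2u1 (22.7). Extracellular matrix genes and integrins had 13 of 110 (11.8%), with Thbs4, Col6a1, Adamtsl5 (5.37) and Sparcl1 (5.37) lowest and Itgav (31.9) and Lamc1 (27.7) highest. The intervals of these last 2 lists included 7.39%. Neither of the 2 single-gene peaks at olfactory and vomeronasal receptors scored under 8.

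The lists of neural and membrane genes lay near the general share. Together these lists had 52 of 535 (9.72%, interval 7.34 to 12.6%), an interval that just includes 7.39%. Axon guidance and adhesion genes had 12 of 100 (12%, interval 6.36 to 20%), with the ephrin gene Efnb3 (4.91, beside a boundary peak of 12.8), Cntnap5b (5.07), Lrrtm2 (5.46) and the semaphorin gene Sema3a (6.48) lowest, and Ntn4 (28.6) and Sema4d (27.4) highest. Ion channels and neurotransmitter receptors had 17 of 170 (10.0%, 5.93 to 15.5%), from the potassium channel gene Kcnd1 (5.97), Scn3a and Trpm1 (6.56 each) and the muscarinic receptor gene Chrm5 (6.79) upwards, with Kcnv1 (30.1) among the highest. Solute carriers had 17 of 181 (9.39%), and neuropeptides and other G protein-coupled receptors 6 of 84 (7.14%). Slc5a11 (4.97), Slc38a4 (5.59), Slc13a4 (5.67) and Slc15a1 (6.26) were the lowest solute carriers, and Slc11a2 (32.5) and Slc16a10 (31.9) the highest. Among receptors the lowest were the lysophosphatidic acid receptor gene Lpar4 and the nociceptin precursor gene Pnoc (6.56 each), Gpr85 (6.90) and Gpr173 (7.16), and the highest Adgra2 (32.2) and Gpr180 (29.1). The intervals of all 4 lists included 7.39%. Besides Efnb3, some low-scoring genes named from these lists had a peak of 8 or more in the gene or its flanks. These were Sema3a (12.8), Trpm1 (9.18), Chrm5 (17.0), Slc38a4 (8.24), Slc13a4 (9.76) and Gpr85 (15.2). Slc5a11 had a higher peak under 8, of 6.56.

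The lists with the role of broadly expressed genes had few low-scoring peaks. The lists of this role together had 36 of 984 (3.66%, interval 2.58 to 5.03%). Zfp genes had 6 of 277 (2.17%, 0.80 to 4.65%), at 5 genes: Zfp870 (5.97, beside a boundary peak of 19.1), Zfp423 (6.26 and 7.36), Zfp385c (6.86, beside a peak of 13.3 in the gene or its flanks), Zfp275 (7.46) and Zfp868 (7.95). The highest were Zfp493 (34.6) and Zfp69 (33.4). Genes of DNA replication, transcription and RNA processing had 4 of 186 (2.15%, 0.589 to 5.41%), the RNA helicase genes Dhx9 (6.26) and Dhx58 (6.48), Polr3gl (6.86, at its 3′ end, with 20.3 at another boundary peak) and the Mediator subunit gene Med14 (7.46), and Prpf38a (33.7) and Dhx40 (32.5) were the highest. Ubiquitin and membrane traffic genes had 11 of 304 (3.62%, 1.82 to 6.38%), from the deubiquitinase gene Usp9x (5.07), Arl11 and the ubiquitin-conjugating enzyme gene Ube2d3 (5.97 each) and Arl3 (6.86) up to Stx17 and Usp25. Ube2d3 and Arl3 had another boundary peak, of 11.3 and 23.9. Genes of the ribosome, proteasome, translation and respiratory chain had 11 of 211 (5.21%, 2.63 to 9.14%), among them Rps3 (6.35) and Cox5a, Eif2s3x and Uqcr11 (7.16 each), and Cox5a had a peak of 19.1 elsewhere in the gene or its flanks. Ndufaf6 (30.7) and Eif4e2 (29.2) were the highest of that list. Replication-dependent histone genes, which are short and clustered, stood at the other side of the general share. Of their 6 single-gene peaks 4 scored under 8, at H4c11 (5.37), H1f2 (6.62), H1f3 (7.16) and H2bc14 (7.76), and all 4 touched both ends of these short genes.

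Markers of neural progenitors carried low-scoring peaks. Of the peaks at radial glia genes 9 of 20 single-gene peaks (45.0%, interval 23.1 to 68.5%) scored under 8, and the median of the 20 was 8.35. They were at Hes1 (5.24), the RNA-binding progenitor gene Msi1 (5.67), Id4 (6.13), Sox9 (6.4), Fabp7 (6.56), Pax6 (7.16), Slc1a3 (7.42), the receptor gene Notch1 (7.46) and the matrix gene Tnc (7.76). Of these 9, 2 (Hes1 and Id4) had a boundary peak of 8 or more, and Msi1 and Pax6 had a peak of 17.3 and 8.95 elsewhere in the gene or its flanks. Several of these genes are also in the developmental lists, and the low median of this list was known from earlier results of these data, so it is no independent support. Intermediate progenitor genes had 2 of 14 peaks, both at 1 gene. Neuronal genes had 1 of 11, at the vesicular glutamate transporter gene Slc17a7 (7.16, beside 15.5).

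For other cell types the numbers were small. Endothelial genes had 3 of 5, at Sox18 (6.38), Sox17 (7.61) and Eng (7.76), and genes of astrocytes and oligodendrocytes 2 of 6, at Cspg4 (5.02) and Aldh1l1 (6.77). Eng and Cspg4 had a peak of 10.5 and 9.84 elsewhere in the gene or its flanks. Erythroid genes had 0 of 6 and microglial and white blood cell genes 0 of 1. Any boundary peak was found for 5 of 12 endothelial, 6 of 12 erythroid, 2 of 14 microglial and 7 of 16 astrocyte and oligodendrocyte genes. In the radial glia, intermediate progenitor and neuron lists it was found for 18 of 22, 13 of 15 and 11 of 20 genes. A peak does not measure expression, and the part of other cell types in the low scores was not tested.

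The promoters under low-scoring start peaks were less CpG-rich. The CpG ratio is the number of CpGs divided by the number that the C and G content would give by chance, over 250 bases before and 50 after the start, and a ratio above 0.6 is called CpG-rich here. A promoter was matched to 377 low-scoring and 6081 other peaks at starts or at both ends. Of these, 154 (40.8%, interval 35.8 to 46%) and 4560 (75%, 73.9 to 76.1%) were CpG-rich. The peak overlapped the matched promoter in 335 of 377 (88.9%) and 5965 of 6081 (98.1%) cases. All matched promoters, overlapped or not, are called promoters under a peak here. The median ratio was 0.53 against 0.76 and the median G and C content 57.7 against 61.7%. Among all 21263 RefSeq promoters of protein-coding genes 47.6% were CpG-rich. The CpG-rich share rose from 43.0% under 6 and 40.2% from 6 to 8 to 59.5% from 8 to 10 and 83.0% at 20 or more.

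The size of the difference varied by role. Promoters of developmental regulators were CpG-rich under low-scoring peaks in 24 of 30 cases (80.0%, interval 61.4 to 92.3%) and under other peaks in 85 of 111 (76.6%, 67.6 to 84.1%). Broadly expressed genes gave 15 of 21 (71.4%) and 78.5%. Tissue genes gave 5 of 25 (20%, 6.83 to 40.7%) against 49.7% (41.2 to 58.1%), and neural and membrane genes 5 of 28 (17.9%, 6.06 to 36.9%) against 57.8% (52.1 to 63.4%). Whether the difference itself differs between roles was not tested. Single genes of both kinds, chosen after their values were seen, follow. Lmx1b, Vax1, Pax6 and Sox11 had ratios of 0.77, 1.00, 0.70 and 0.82, whereas Col6a1, Fabp7, Slc1a3 and the protease inhibitor gene Eppin had 0.13, 0.28, 0.20 and 0.20.

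**Figure D5:**
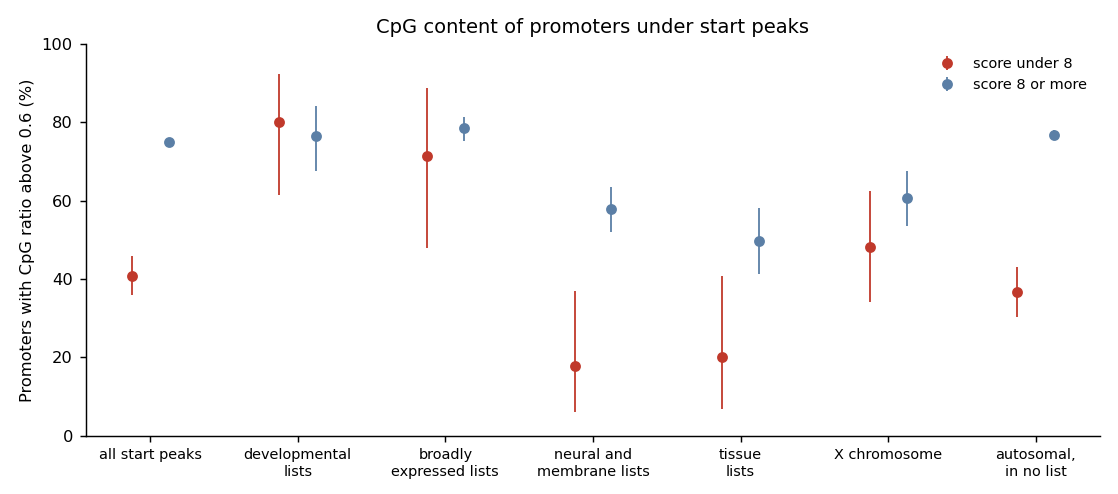
Percent of promoters with a CpG ratio above 0.6 under start peaks with a score under 8 (red) and of 8 or more (blue), with 95% exact binomial intervals, for all start peaks and by group of genes. Low-scoring peaks stand at 80.0% for developmental lists, near the 76.6% of other peaks, and at 20 and 17.9% for tissue and for neural and membrane lists.

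Among CpG-rich promoters alone, low scores were still more frequent at developmental regulators. Of 4714 start peaks at CpG-rich promoters 154 (3.27%, interval 2.78 to 3.81%) scored under 8. For developmental lists this was 24 of 109 (22.0%, 14.6 to 31.0%) and for broadly expressed lists 15 of 577 (2.60%, 1.46 to 4.25%). At promoters with a ratio of 0.6 or less it was 223 of 1744 (12.8%, 11.3 to 14.4%).

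Short sequence motifs, searched as exact letters on both strands of the same 300 bases, were counted next, and no match says only that these letters are absent from the window. CCGGAAG, the core bound by ETS factors, was present in 20 of 377 promoters under low-scoring peaks (5.31%, interval 3.27 to 8.07%), 15.7% (14.8 to 16.6%) of those under other peaks and 11.6% of all promoters. GCATGCGC, a core of the NRF1 motif, was in 1.86% (0.75 to 3.79%), 5.82% (5.25 to 6.44%) and 3.52%. GGGCGG, the GC box, was in 58.6% (53.5 to 63.6%), 69.6% (68.4 to 70.7%) and 46.2%. TATAAA, the TATA box, was in 11.1% (8.15 to 14.8%), 6.63% (6.01 to 7.28%) and 12.6%. CCAAT (41.4 against 38.5%), CAGCTG, an E-box (15.6 against 15.2%) and TGACGTCA, the cyclic AMP response element (2.12 against 3.39%) had overlapping intervals. The motifs of ETS factors, NRF1, the GC box and the cyclic AMP response element contain a CpG, and their frequency apart from CpG content was not tested.

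The share of low-scoring peaks among single-gene peaks was higher on the X chromosome than on autosomes. Of its 319 single-gene peaks 65 (20.4%, interval 16.1 to 25.2%) scored under 8, against 620 of 8962 (6.92%, 6.4 to 7.46%) on autosomes, where chromosomes ranged from 3.11% (chromosome 12) to 9.34% (chromosome 6). The whole X distribution was low, with a median of 10.1 and a highest score of 20.6, against a median of 17.0 on autosomes. X peaks made up 8.28% of single-gene peaks under 6 and 9.83% from 6 to 8. They made up 12.1% from 8 to 10, 9.76% from 10 to 12 and 0.108% at 20 or more. A raised share of X peaks was thus not particular to scores under 8. Of the 55 X peaks under 8 with known strand 53 (96.4%) touched a start, as did 214 of 215 (99.5%) X peaks of 8 or more. At CpG-rich promoters 25 of 144 X start peaks (17.4%, 11.6 to 24.6%) scored under 8, against 128 of 4569 (2.80%, 2.34 to 3.32%) on autosomes. The genes included broadly expressed ones. Beside Med14, Eif2s3x and Usp9x, described with their lists, the deubiquitinase gene Usp11 (6.86), the glycolytic gene Pgk1 (5.67), the glycosyltransferase gene Ogt (5.46) and the chromatin remodeller gene Atrx (7.16) were picked after their values were seen. Of the 65 peaks 58 (89.2%) had no other peak in the gene or its flanks, close to the 232 of 254 (91.3%) among X peaks of 8 or more. Since the sex of the embryos is not known here, the part of X copy number was not tested. Without X and Y the developmental share was 55 of 258 (21.3%, 16.5 to 26.8%) and the broadly expressed share 31 of 955 (3.25%, 2.22 to 4.58%). The single Y member, Uty, scored 5.07.

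Compared with other low-scoring peaks, those at a single gene were a minority. Of 5394 peaks under 8 in the list 686 (12.7%) were at 1 gene, 81 at the ends of 2 or more genes and 4627 at no gene end. A score under 8 was found for 44.4% (interval 43.5 to 45.4%) of peaks at no gene end, 7.39% at 1 gene and 4.39% (3.50 to 5.43%) at 2 or more. Widths were close, with medians of 1530 bp at no gene end, 1585 bp at 1 gene and 1619 bp at 2 or more genes.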

How the data were processed

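H2AZ ChIP-seq and input were made from 1 library each, and 1 peak list was deposited, without a header. The score in it is the authors' own value per peak, and what it measures is not named. The peak names carry the name MACS, per the deposited file; the sources used here give no version, settings or control. The submitters' processing notes list CASAVA 1.4, FastQC, Bowtie2 2 and the build mm9. Positions, deposited by the authors as starts counted from 0, fitted the gene ends of GRCm38.p6 (RefSeq), with 51.6% of peaks at an end and 8.26 to 8.32% after a shift of 1000000 bp, so they were read as that build.

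The 46 peaks numbered after the last Y peak were left out. Peaks overlapping by at least 1 bp the 1 kb around the ends of exactly 1 of 21774 protein-coding genes were taken. Strand, starts and promoter sequences came from RefSeq's promoter table, which held 17492 of these genes (80.3%); peaks of the others had no known strand. A start peak was matched to the RefSeq start nearest to the first base of the gene within 1 kb. Genes were grouped by symbol patterns.

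The members and lists were chosen with earlier results of these data known. Alternatives were limits of 7 and 10, windows of 500 bp and 2 kb, the midpoint criterion, 1 gene of any type, and overlap with the promoter. Named are the 5 lowest, 5 just inside and 5 just outside the limit and 5 widest; of each list the 4 lowest and 2 highest others; and genes with 2 members; some genes that this rule names are not reported here. Further names are marked as chosen after their values were seen. With 1 library no test was made. Python 3.11.15, numpy 2.4.6, pandas 2.3.3, scipy 1.17.1 and matplotlib 3.10.9 were used. On simulated data 200 of 200 planted peaks were assigned to their gene and end. They were planted only at long genes with no other gene end nearby, so short and crowded genes were not covered. Assignments to genes differed for 0 of 2200 peaks from a direct comparison with all genes.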

Additional observations from a re-analysis of the deposited data

Results flagged for a closer look

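In data outside the comparisons, 46 listed peaks had numbers after the last Y peak. None of these 46 had a score under 8 at the ends of exactly 1 protein-coding gene (0 of 46, exact interval up to 7.71%), so they would add no low-scoring peak.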

How the results depend on the processing

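With 1 library per group there is no replicate check, and depth is unknown. No paired analysis was possible because each group holds 1 library and no value comes from a test. A limit of 7 left 379 peaks (4.08% of single-gene peaks) and one of 10 gave 1412 (15.2%); the shares then were 10.6 and 39.8% for developmental regulators, 10.2 and 26.0% for tissue genes, 4.86 and 18.7% for neural and membrane genes, and 1.52 and 10.2% for broadly expressed genes, with developmental and tissue genes close at 7. With the limit of 10 the share at the start was 81.4% and the CpG-rich share 50.9%. Windows of 500 bp and 2 kb and the midpoint criterion gave shares of single-gene peaks under 8 of 6.78, 8.40 and 6.45%. The share at the start was then 81.6, 70.9 and 85.7%, and the share without another boundary peak of 8 or more 86.4, 73.2 and 90.2% against 81.8% as reported. These criteria change which peaks count as being at an end. Requiring 1 gene of any type, run for all of these but the CpG-rich share, and overlap with the promoter window, run for the CpG-rich share alone (41.2%), moved none of the shares they were run for beyond the reported interval; the number of peaks under the former was 589. Among values of single lists, 27 of 148 left the reported interval; those of neurons, intermediate progenitors, neuropeptides, solute carriers and erythroid genes changed side of the general share under at least 1 setting.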
